A study of Mus musculus with 2 samples.

Results

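10 transcription factor genes known as regulators of natural killer (NK) cells and related lymphocytes were examined for Aiolos binding: Runx1, Runx3, Rora, Bhlhe40, Cxxc5, Zbtb32, Tbx21, Eomes, Gata3 and Prdm1. They were chosen by name with the peaks of this list known, and a gene counted as carrying a peak when the authors' annotation gave its symbol to a row of their peak list. Of the 10 genes, 6 carried a peak, with 7 peaks among the 1404 of the list, and Tbx21, Eomes, Gata3 and Prdm1 carried none. Of all protein-coding genes 5.38% carried one. Over the whole list 1276 genes carried a peak. The peaks come from CUT&RUN, in which an antibody directs a protein A and micrococcal nuclease fusion to a chromatin protein and the DNA released by the cut is sequenced. Both libraries were made from mouse NK cells that were taken from spleen and grown in complete IMDM containing interleukin-15 (50 ng/ml) until at least 500000 were at hand for each, 1 with an antibody to Aiolos and 1 without a primary antibody. The labels name no strain, genotype or age for the mice. As each group is a single library, no replicate error can be given. The intervals below reflect the counting of antibody tags alone, with the local background held fixed.

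Aiolos, encoded by Ikzf3, is a zinc finger protein of the Ikaros family that binds DNA at sites with a GGGAA core and acts through chromatin complexes in lymphocytes. NK cell identity rests on a small circuit of factors. T-bet, encoded by Tbx21, and Eomes, both T-box proteins, direct maturation and effector genes. Runx1 and Runx3 bind DNA through the Runt domain with the partner Cbfb, and Runx3 is a main factor of cytotoxic lymphocytes. Gata3 and Prdm1, the gene of Blimp-1, act in lymphocyte development and terminal maturation. Rora encodes a nuclear receptor known from innate lymphoid cells, Bhlhe40 a basic helix-loop-helix repressor, Zbtb32 a BTB zinc finger protein that NK cells need to proliferate in viral infection, and Cxxc5 a protein that binds unmethylated CpG.

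The promoter sequences of Runx3 and Runx1, which had a peak at or near the start, are shown beside that of Tbx21, which had none. Each is the 250 bases upstream of the outermost RefSeq start (GRCm38.p6), written 5′ to 3′ along the gene, and capitals mark the Ikaros family core GGGAA or its reverse complement TTCCC. The Runx3 stretch lies on the plus strand at chr4:135120395-135120644, and its last 54 bases are inside the Runx3 peak. The Runx1 stretch lies on the minus strand at chr16:92826075-92826324, 165 bp from the nearer Runx1 peak. The Tbx21 stretch lies on the minus strand at chr11:97115332-97115581, far from any peak.
Runx3: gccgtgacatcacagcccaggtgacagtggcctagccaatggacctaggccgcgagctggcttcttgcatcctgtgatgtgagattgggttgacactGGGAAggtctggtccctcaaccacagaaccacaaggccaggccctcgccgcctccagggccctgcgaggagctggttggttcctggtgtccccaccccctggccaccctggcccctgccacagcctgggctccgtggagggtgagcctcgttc
Runx1: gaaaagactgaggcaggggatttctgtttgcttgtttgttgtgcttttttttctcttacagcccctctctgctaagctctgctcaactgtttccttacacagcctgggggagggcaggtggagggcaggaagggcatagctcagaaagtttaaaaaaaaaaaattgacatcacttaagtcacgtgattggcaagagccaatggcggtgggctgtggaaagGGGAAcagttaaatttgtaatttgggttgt
Tbx21: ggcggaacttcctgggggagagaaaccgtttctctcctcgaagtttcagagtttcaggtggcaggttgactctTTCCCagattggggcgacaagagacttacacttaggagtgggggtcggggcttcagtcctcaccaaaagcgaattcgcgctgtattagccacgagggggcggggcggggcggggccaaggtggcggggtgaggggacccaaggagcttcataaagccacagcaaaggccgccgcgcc
The core began 153 bp upstream of the start in the Runx3 stretch, 30 bp upstream in the Runx1 stretch and 177 bp upstream in the Tbx21 stretch. All 3 stretches thus held it, whether or not the gene had a peak, as did 56.2% of the 32851 RefSeq promoter windows cut to the same length. None of the marked cores lay inside a peak. The longer form TGGGAA, on either strand, was in the Runx3 and Tbx21 stretches and in 21.6% of all windows.

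At both Runx genes the peaks lay by the distal of the promoters from which these genes are transcribed. Runx3 (gene 12399) had 1 peak on chromosome 4 at 135120591 to 135120862 (mm10). It spanned the start of the annotated transcript, with its summit 115 bp downstream. Its fold enrichment over the local background was 7.24 (95% exact Poisson counting interval 3.58 to 13.5), from 8 tags against a background of 0.242 tags. The proximal Runx3 start lies 31.9 kb further along the gene, and its 250 bases upstream were 31433 bp from the nearest peak, the distal one.

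Runx1 (gene 12394) was the member with more than 1 peak. The first, on chromosome 16 at 92825700 to 92825910, overlapped the start of the transcript the authors assigned, with the summit 38 bp upstream of it. Measured from the outermost RefSeq start the same summit lay 258 bp downstream, so the reading of upstream or downstream turned on the transcript model. Its fold was 6.95 (3.76 to 12) from 11 tags against a background of 0.727 tags. The second peak, at 92822093 to 92822637, lay in intron 2 of 7, with a fold of 6.21 (3.07 to 11.6) from 8 tags. Its summit was 3.27 kb downstream of the assigned start and 3.56 kb downstream of the outermost RefSeq start. Over the list, 8.07% of the 1276 genes with a peak had at least 2.

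The proximal Runx1 start lies 129 kb from the distal one, and its 250 bases upstream were 124514 bp from the nearest peak. In both genes the promoter near the peak had fewer G and C bases than the other: 65.2% against 78.8% for Runx3 and 45.6% against 67.6% for Runx1. The Runt core TGTGGT, or its reverse complement ACCACA, occurred at 2 places in the distal Runx3 stretch, 134 and 126 bp upstream, and in 0 of the other 3 Runx stretches. It was present in 14% of all promoter windows of this length.

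Zbtb32 and Bhlhe40 had weak promoter peaks that stood off from the start. The Zbtb32 peak (gene 58206), on chromosome 7 at 30593279 to 30593500, had its summit 403 bp upstream of an internal start, and 5.56 kb downstream of the other RefSeq start of the gene. Its fold was 5.63 (2.58 to 11.3) from 6 tags. The Bhlhe40 peak (gene 20893), on chromosome 6 at 108660106 to 108660328, had its summit 428 bp upstream of the start and a fold of 4.83 (2.11 to 10.2) from 5 tags. The next peak, 28.9 kb upstream at 9.26-fold, was assigned by the authors to 0610040F04Rik. Of the 910 promoter peaks of the list, 14.8% had a summit at least 400 bp from the start, and the quartiles of the summit position were -238 and 96 bp. Both summits were thus farther upstream than 3 in 4 promoter summits, while those of Runx1 and Runx3 stood within 115 bp of their annotated starts.

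The peaks of Rora and Cxxc5 lay away from promoters. The Rora peak (gene 19883), on chromosome 9 at 69034466 to 69034745, was the strongest of the 7, with a fold of 9.66 (5.22 to 16.6) from 11 tags. It ranked 156 in the list, and 88.5% of all peaks had a lower fold. It lay in intron 1 of 10 of a long Rora transcript, 381 kb downstream of the RefSeq start and 161 kb upstream of the start of the shorter transcript assigned to it. Rora is a long gene of 735 kb. The next peaks on the chromosome, assigned to Aph1b and Tex9, were 2.24 Mb and 3.43 Mb away. In the whole list 23 peaks (1.64%) lay over 100 kb from their assigned start.

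The Cxxc5 peak (gene 67393), on chromosome 18 at 35865366 to 35865577, lay 10.6 kb downstream of the assigned start and 3.67 kb past the end of the gene in the gene table. The authors' annotation placed it in intron 1 of 1 of a transcript. Its fold was 7.57 (4.09 to 13) from 11 tags against a background of 0.586 tags. The nearest other peaks, assigned to Hbegf and Hspa9, were 647 kb and 911 kb away.

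**Figure D1:**
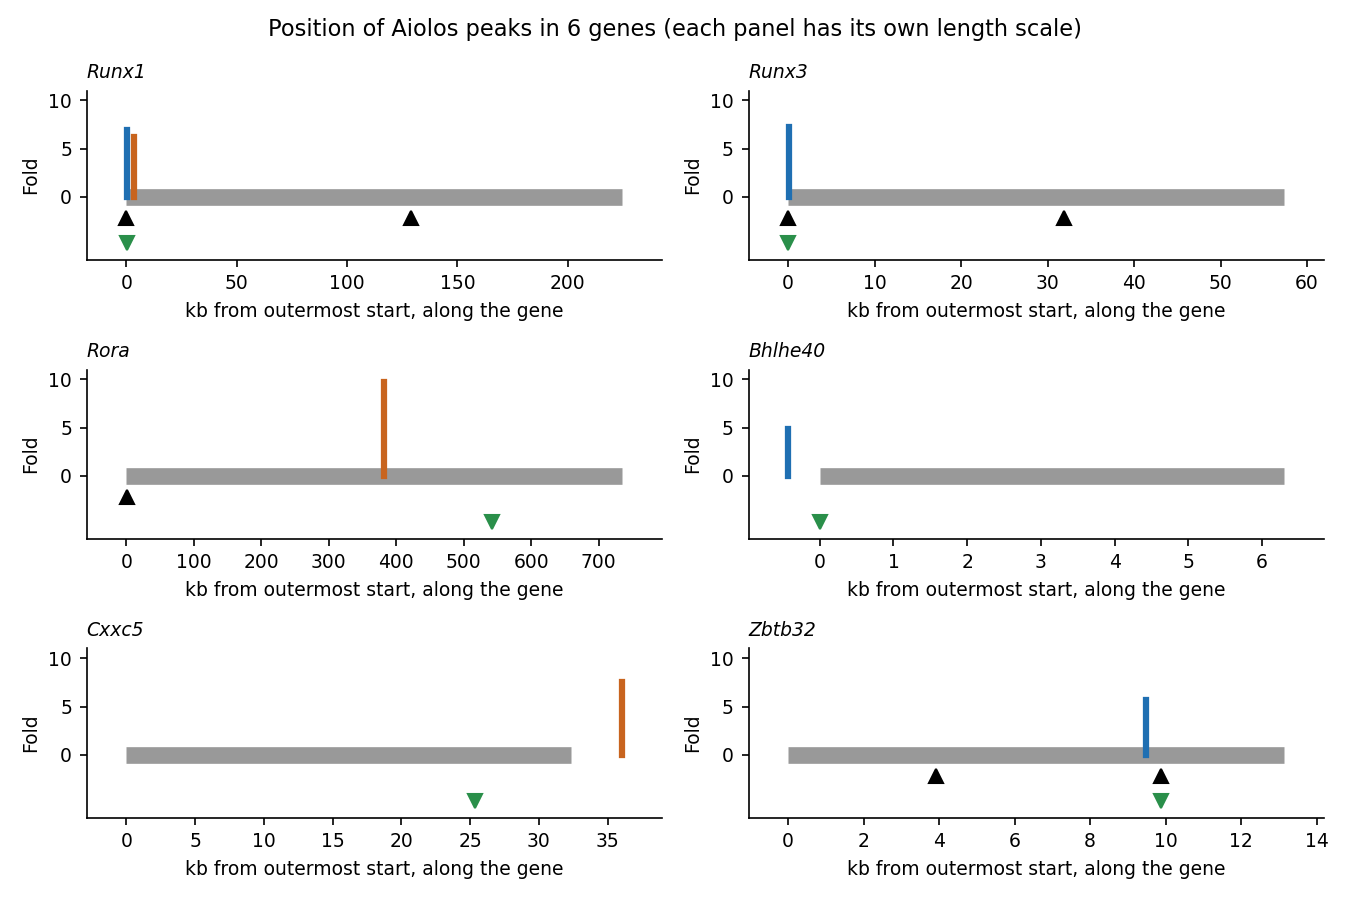
Each panel shows 1 gene as a grey bar in kb from its outermost start, with the fold enrichment of each peak as a vertical line at the summit (blue, promoter peak; orange, other peak), RefSeq starts with a promoter sequence as black triangles and the start assigned by the authors as green triangles. The Runx1 and Runx3 peaks stand at the distal end, the Rora peak 381 kb into the gene and the Cxxc5 peak past the gene end.

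The promoter count was 4 of 10 members, Runx1, Runx3, Bhlhe40 and Zbtb32, with a promoter peak defined as a peak centre within 1000 bp of the assigned start. Of 21900 protein-coding genes 3.79% had a promoter peak, and 5.38% had any assigned peak, against 60% of the members. The members were chosen with these peaks known, so the difference is a description and not a test. By strength the members' peaks lay around the middle of the list. The 6 strongest folds per gene had a median of 7.10, against 6.47 over all protein-coding genes with a peak, and 4 of the 7 peaks were above the list's median of 6.44. All 7 counting intervals overlapped, from a highest lower bound of 5.22 for Rora to a lowest upper bound of 10.2 for Bhlhe40, so the order of the members by fold was not resolved at this depth.

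**Figure D2:**
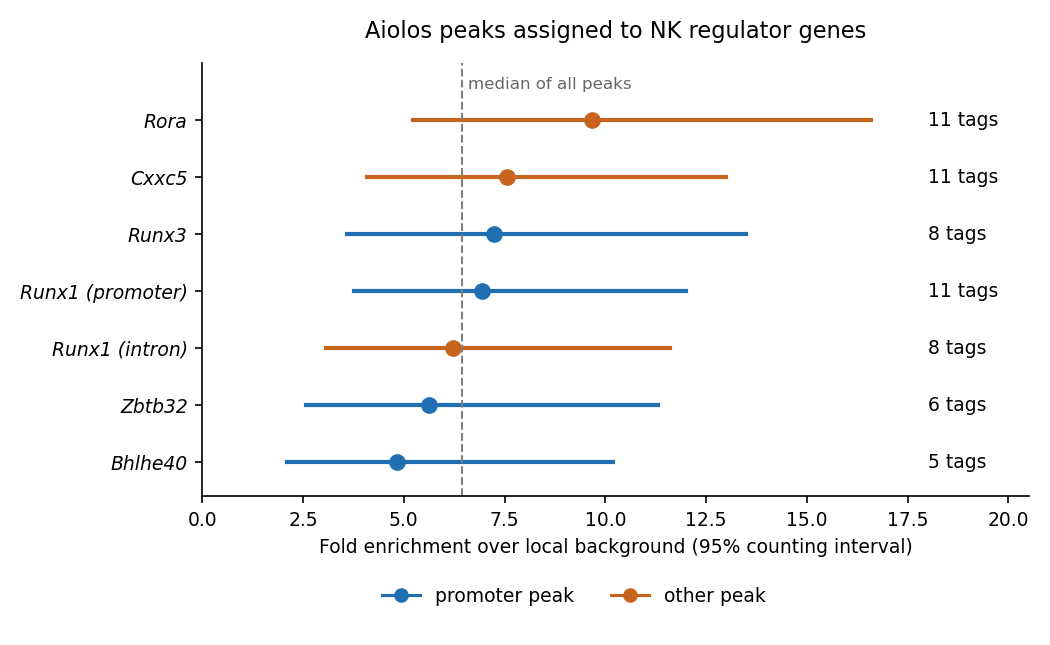
Fold enrichment of the 7 peaks (points) with 95% exact Poisson counting intervals (lines), the number of tags at each summit, and the median of all 1404 peaks as a dashed line. The intervals hold the background fixed. Rora is highest at 9.66 and Bhlhe40 lowest at 4.83, and all intervals overlap.

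The estimated local background varied among the member peaks, as did the antibody tags. No counting error was given for the background, so whether its values truly differed was not resolved. Rora, Cxxc5 and the Runx1 promoter peak each held 11 tags at the summit, but their backgrounds were 0.242, 0.586 and 0.727 tags, which gave folds of 9.66, 7.57 and 6.95. Runx3 reached 7.24 with 8 tags on a background of 0.242 tags. This background was shared by Rora, Runx3, Zbtb32 and Bhlhe40 and by 15.1% of all peaks, within a tolerance of 0.001 tags. The 75 peaks of the list with 11 tags had folds from 4.35 to 10.1. The deposited fold adds 1 tag to pileup and background. Without that addition the ratios were 45.4 for Rora, 33.0 for Runx3, 24.7 for Zbtb32, 20.6 for Bhlhe40, 18.8 for Cxxc5, 17.8 for the intronic Runx1 peak and 15.1 for the Runx1 promoter. Zbtb32 and Bhlhe40 then stood above Cxxc5 and Runx1, the intronic peak was the stronger of the Runx1 pair, and Rora stayed first. No intervals were computed for these ratios, which divide by backgrounds as low as 0.242 tags. The lowest background of the list was 0.186 tags.

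**Figure D3:**
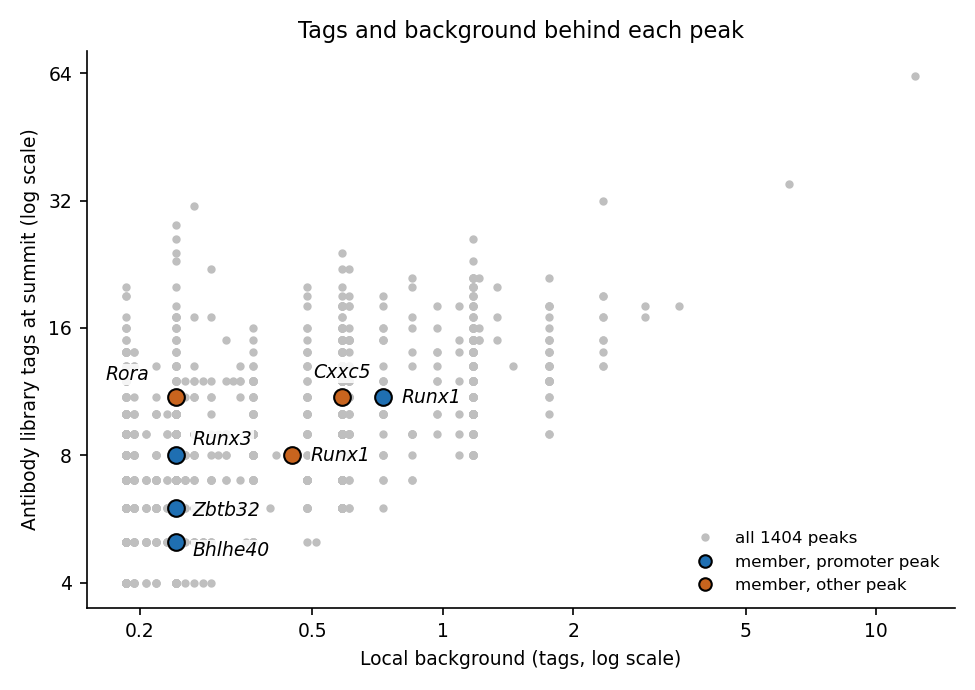
Tags in the antibody library at each summit against the local background in tags, both on log scales, for all 1404 peaks (grey) and the 7 member peaks (blue, promoter; orange, other). Rora, Cxxc5 and 1 of the Runx1 peaks share the level of 11 tags at backgrounds of 0.242, 0.586 and 0.727 tags.

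Removing the weaker peaks removed Bhlhe40 and Zbtb32. With the peaks kept whose -log10 q reached the median of 5.32, members with a peak numbered 4 (Runx1, Runx3, Rora and Cxxc5) and members with a promoter peak 2 (Runx1 and Runx3). Of all protein-coding genes 2.89% then had a peak and 2.09% a promoter peak. The -log10 q of the 7 peaks was 11.25 for Rora, 7.18 for Cxxc5, 6.72 for Runx3, 6.20 and 4.67 for Runx1, 4.0 for Zbtb32 and 2.78 for Bhlhe40. Every one was above the lowest of the list, 1.31.

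The 4 members without a peak had none in their neighbourhood. Tbx21, on chromosome 11 at 97098007 to 97115331, was 588 kb from the nearest peak, a promoter peak of 5.07-fold (2.67 to 8.93) assigned to Psmb3. Eomes, on chromosome 9 at 118478186 to 118486132, was 3.37 Mb from the nearest, a promoter peak of 9.28-fold (4.89 to 16.4) assigned to Higd1a. Both T-box genes of NK cells were thus without a peak called near them. Of protein-coding genes 5.38% carried a peak, so its absence at these 4 members says nothing about these factors.

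Gata3, on chromosome 2 at 9857078 to 9887953, was 1.31 Mb from a peak of 5.06-fold (2.21 to 10.7, 5 tags) assigned to Prkcq. Prdm1, on chromosome 10 at 44437174 to 44528558, was the nearest of the 4 to a peak, at 293 kb. That peak, at 44821915 to 44822179, had a fold of 9.30 (5.03 to 16) from 11 tags and was assigned to Prep, whose start is 245 kb away. It lies between Prdm1 and Prep, and the authors' annotation placed it in exon 2 of 2 of a transcript.

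The 4 distances ran from below to well above the genome's median. The median protein-coding gene was 404 kb from its nearest peak, over 21631 genes on chromosomes with peaks. Prdm1 was nearer than the median, with 56.4% of genes farther from a peak. Tbx21 had 42.1% of genes farther away, Gata3 25.2% and Eomes 8.54%. Among protein-coding genes without an assigned peak the median was 460 kb. Of those genes, 59.6% were farther than Prdm1, 44.5% than Tbx21, 26.6% than Gata3 and 9.03% than Eomes. The weakest peaks of the list rested on 4 tags, so binding that yields fewer tags would not have been called at this depth.

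**Figure D4:**
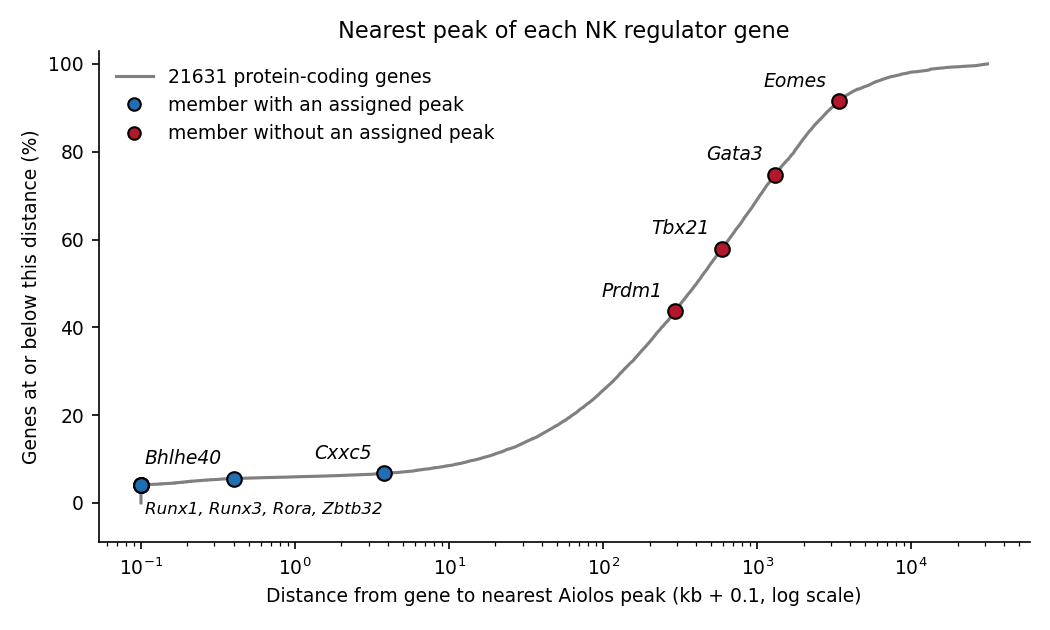
Cumulative share of 21631 protein-coding genes by the distance from the gene to its nearest peak (kb plus 0.1, log scale), with the 6 members that had an assigned peak in blue and the 4 that had none in red. The 6 blue points lie within 3.67 kb of a peak, and the red ones between 293 kb for Prdm1 and 3.37 Mb for Eomes. The colours were set by peak assignment, which itself goes with distance.

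Gene lengths of the members with and without a peak overlapped, and the longest, Rora and Runx1, both had a peak. The members with a peak ran from 6.30 kb for Bhlhe40 to 735 kb for Rora, with Zbtb32 at 13.1 kb, Cxxc5 at 32.3 kb, Runx3 at 57.3 kb and Runx1 at 225 kb. Those without ran from 7.95 kb for Eomes, through 17.3 kb for Tbx21 and 30.9 kb for Gata3, to 91.4 kb for Prdm1, inside that range. Of protein-coding genes of at least 100 kb, the size class of Runx1 and Rora, 5.77% had a peak, against 5.41% of shorter ones. Both shares were taken over the 21631 genes on chromosomes with peaks, whereas the share of 5.38% was taken over 21900. The median length was 21.9 kb for protein-coding genes with a peak and 17.1 kb for those without. A link between length and peaks was not tested.

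Motif letters in the promoters were found in genes with and without a peak. RefSeq promoter windows were found for 8 of the 10 members, 11 windows in all. GGGAA was in 6 of the 11, those of Prdm1 and Tbx21, both of Runx1, the distal one of Runx3 and 1 of Zbtb32. Its share over all windows was 56.2%, so this count was ordinary. TGGGAA was in 1 window each of Runx3, Tbx21 and Prdm1, of which Runx3 had a peak, and in 21.6% of all windows. It was in no window of Runx1, Rora, Zbtb32, Eomes or Gata3. The AP-1 site TGANTCA was found in the Prdm1 window, 48 bp upstream of the start, and in 6.75% of all windows. The ETS core CCGGAA was found in the proximal Runx1 and the Gata3 windows (12% of all), and the E-box CACGTG in the distal Runx1 window, 71 bp upstream (6.02% of all). The T-box core GGTGTG was found in both Zbtb32 windows and in that of Gata3, against 16.3% of all windows. Each motif was searched on both strands in the 250 bases upstream, every match of TGGGAA is also one of GGGAA, and CCGGAA shares the letters GGAA with both. The shorter core GGGAA was added after the values had been seen. Of the 11 windows, the distal Runx3 one was the window that overlapped a peak, so these letters describe promoters and not the peak sequences, which were not used here.

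The members were then set among relatives of their own families and other lymphoid regulators, 54 genes that include the 10. Of these, 14 carried a peak (25.9%), and without the members 8 of 44 did (18.2%), against the 5.38% of protein-coding genes. This list too was drawn up with earlier results of these data known. No peak was assigned to any of the 2 T-box, 3 GATA or 2 PRDM genes. Groups this small would mostly be empty at the share of 5.38%, so these zeros say nothing about the families. In the Runt group Runx2 and the partner Cbfb had none, so 2 of 4 carried one. The CXXC group had 1 of 3 (Cxxc5, without Cxxc1 and Cxxc4).

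Among bHLH and ID genes 2 of 6 had a peak, and the stronger was at Tcf3, the gene of the E proteins E12 and E47. Its promoter peak of 9.87-fold (6.85 to 13.8) rested on 32 tags, the most in the list of 54, on a background of 2.34 tags. Bhlhe41, the paralogue of Bhlhe40, had none, and neither had Id2 and Id3, the inhibitors of E proteins, or Tcf12. BTB zinc finger genes had 2 of 6, Zbtb32 and Zbtb7a, a regulator of lymphoid fate, with a promoter peak of 6.95-fold (3.76 to 12). Zbtb16, the gene of PLZF, and Bcl6 were among the 4 without.

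Of the other 26 lymphoid regulators 6 had a peak, and 2 of those had one at the promoter. Irf2, needed for NK cell maturation, had a promoter peak of 7.57-fold (4.09 to 13), the same tags and background as the Cxxc5 peak, and another peak of 5.80-fold 52.2 kb downstream. Irf8 had 3 peaks, of which the promoter peak was 5.13-fold and the strongest, 19.9 kb upstream, 5.99-fold. The peaks of the other 4 genes lay at a distance. Bach2, a repressor of effector differentiation, had an intronic peak of 7.37-fold and one of 5.06-fold 89.3 kb upstream, Lef1 one of 6.44-fold 53.1 kb upstream, Nfil3, required for NK cell development, one of 5.06-fold 76.0 kb upstream, and Smad3 one of 4.02-fold from 4 tags. No peak was assigned to Tox, Tox2, Ets1, Zeb2, Tcf7, Foxo1, Klf2 or the remaining 13 genes.

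**Figure D5:**
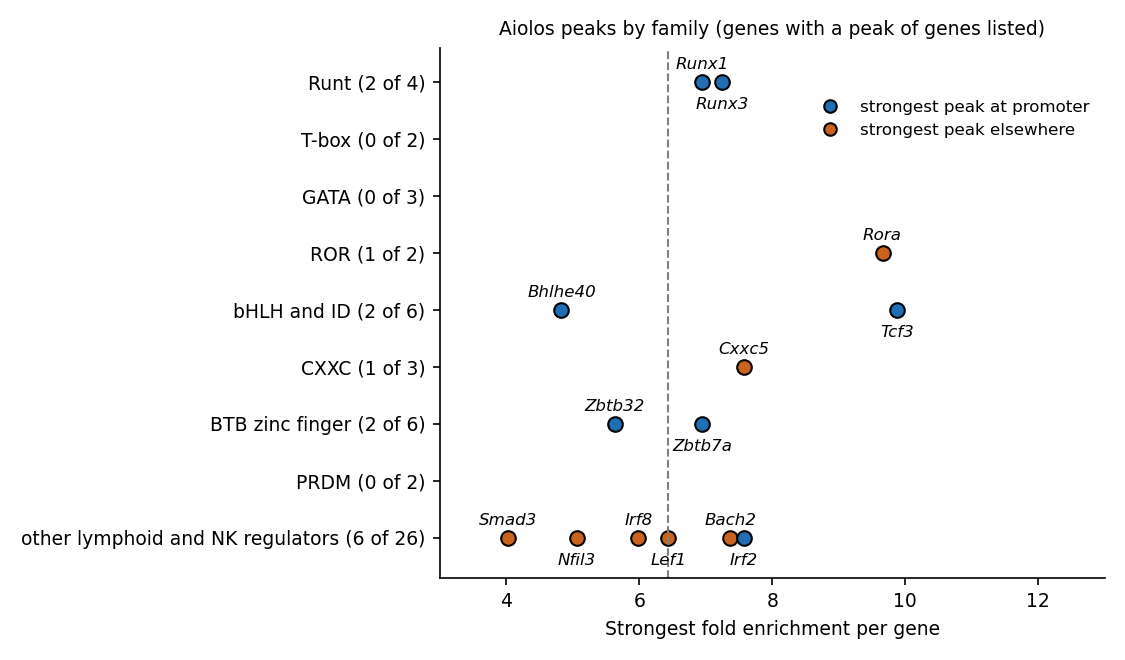
Strongest fold enrichment of each of the 14 genes with a peak among 54 lymphoid regulators, by family, with the count of genes carrying a peak beside each family name (blue, strongest peak at the promoter; orange, elsewhere; dashed line, median of all peaks). The T-box, GATA and PRDM rows are empty, and Tcf3 and Rora stand highest at 9.87 and 9.66. Empty rows of so few genes are not informative, as 5.38% of protein-coding genes had a peak.

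Requiring a peak edge within 10000 bp of the start left 4 of the 10 members, without Rora and Cxxc5, and 8 of the 54 genes, against 4.57% of protein-coding genes. Of 9 NK marker genes 4 had an assigned peak (Gzmb, Il2rb, Klrb1c and Klrd1), and Ncr1, Klrk1, Itga2, Prf1 and Cd244a had none. Of these, 1 had a promoter peak, Gzmb. Of 15 markers of T cells, B cells and myeloid cells 0 had one, which is near the share of 5.38% over all protein-coding genes and says nothing about these markers. A peak is no measure of expression, and the marker lists were chosen with earlier results of these data known. The labelled cell type was therefore not checked by these counts.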

How the data were processed

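The work began from the peak list that the authors deposited; neither reads nor coverage tracks were used. The build was mm10, and Bowtie2, SAMtools, Picard and MACS2 are named without a role, per the submitters' processing notes. The columns hold, per the file headers, a signal value, read here as MACS2's fold (a ratio, pileup plus 1 over background plus 1), and the p-value and q-value as -log10. The label of the library without antibody calls it input; whether it was the control in peak calling is not stated there. The score the authors deposited equals -log10 q times 10, truncated. These fold, q and gene assignments are the authors' own comparison. From fold and p, the pileup (whole tags) and background of every peak were solved (largest error in -log10 p 1.75e-05). The solver was checked on simulated data. Intervals are exact Poisson intervals (95%) of the pileup with a fixed background. The depth of the libraries is known here through these summit counts, 4 to 63 tags with a median of 8. Gene and promoter tables are RefSeq GRCm38.p6, the assembly of mm10, and all 1404 gene identifiers matched. Bhlhe40 and Cxxc5 had no promoter window. Distances from a gene run between its nearest edge and the peak edge. The named genes are all members with every peak, and every gene of the wider list with a peak; 1 gene first listed there is not reported here and is left out of its counts. Members and lists were chosen with earlier results of these data known. Python 3.11.15 and SciPy 1.17.1 were used. Alternatives changed the strength threshold, the distance, the promoter window, the assignment and the pseudocount.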

Additional observations from a re-analysis of the deposited data

How the results depend on the processing

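The count of members with a peak was 4 to 6 in its 4 alternatives, and the count with a promoter peak stayed at 4 with windows of 500 and 3000 bp and with the distance from the peak edge. Promoter members fell to 2 among peaks in the upper part of the list by -log10 q (median included) and to 2 above the median fold, which leave fewer peaks by construction. In these sets the share of protein-coding genes with a peak was 2.89% and 2.73%, and the wider list had 9 and 8 genes. That list had 8 within 10000 bp of the start, and counting any gene within 10000 bp in the gene table gave 8.43% of protein-coding genes and 13 of the wider list. Those 13 lacked Lef1 and Nfil3 and included Zbtb1, which had no assigned peak. The median strongest fold of the members went from 7.10 to 22.7 without the pseudocount, by construction. Merging within 500 bp left 7 peaks. Depth limits single peaks, since the 7 rest on 5 to 11 tags. No paired analysis was possible because each group is a single library.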
